A study of Mus musculus with 4 samples.

Results

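The genes that license replication origins and copy DNA were read here in skin of Tsk1/+ mice: 54 genes, taken by their symbols, of 19532 genes that had at least 1 probe with a single annotated symbol. Every probe annotated with one of these symbols was used, which gave 87 probes, and probes of a gene were averaged. All 54 genes were measured, 29 of them by 1 probe and 25 by several. The samples were 4 two-colour Agilent arrays of 1 group, Tsk1/+ skin. Each array compared that skin (Cy3) with a reference RNA named UMR (Cy5), taken here as cell-line RNA. Whether UMR is a single cell line or a pool of lines was not established here. Tsk1/+ mice are heterozygous for the tight-skin mutation in the fibrillin-1 gene and are used as a model of scleroderma; the sample titles also call them transgenic. The arrays carry the names 1-1, 1-2, 2-1 and 2-2, and values below follow that order. Age, sex and skin site are not in the labels, and nothing there states whether 4 different mice were used. The p-values therefore describe the spread among 4 samples, and that spread may be technical. Wild-type skin was not analysed here, so the values do not measure what the mutation does. All values are log2 ratios of Tsk1/+ skin over the cell-line reference, so a ratio of -1 is a 2-fold lower signal in skin.

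DNA replication begins with licensing. The origin recognition complex, with Cdc6 and Cdt1, loads the ring-shaped Mcm2 to Mcm7 helicase onto DNA in G1, and geminin blocks reloading later in the cycle. Kinases then recruit Cdc45 and the GINS complex, the helicase opens the DNA, and polymerases, the sliding clamp and its loader copy both strands from freshly made deoxynucleotides. In skin, dividing cells lie mainly in the basal epidermis and the hair follicle, while most other cells of the tissue rest. Cultured cell lines are dividing populations. Many of these genes are switched on by E2F factors at the passage into S phase.

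The direction of the deposited ratio is not given in the sources used here and was taken as likely from 16 cornified epidermis markers. Their median deposited ratios were -5.35, -5.56, -5.33 and -6.31, so the deposited values were taken to run reference over skin and every sign was turned. Lor, a cornified envelope protein among these 16, then stood at 6.81 ± 0.71 (SD, n = 4), with a sign that follows from this choice. Of the 16, 13 were higher and 3 did not pass, with Flg at 0 on all arrays and Krt2 at 0 on all but array 2-1. The basal keratins Krt5 and Krt14, not among the 16, stood at 4.68 ± 0.46 and 4.39 ± 0.43. Of 10 basal keratinocyte markers 8 were higher in skin, and 1 was lower. All 9 skeletal muscle, all 6 adipocyte, 6 of 7 macrophage, 5 of 6 dermal fibroblast and 3 of 5 endothelial markers were higher. Other lists were mixed: of 6 T cell markers 3 were higher and 1 lower, of 4 B cell markers 1 was higher and 2 lower, with Cd79b at -3.80 and Ms4a1 at -3.77. Of 10 hair markers 0 were higher and 1 lower (Lef1, -1.28), with 1 above and 2 below 0 at an unadjusted p below 0.05. The arrays differed in hair keratins. Krt71, Krt27 and Krt33a read 6.21, 5.01 and 4.75 on array 1-1 and at most 1.575 on any other array. Krt31, Krt35 and Krt25 were listed at 0 on array 1-1. Of 7 genes of germ or embryonal cells in culture 3 were lower (Rhox5, Afp and Syce1, at -5.33, -3.94 and -4.78) and 4 did not pass, with means from -0.10 for Lin28a to 0.42 for Utf1. Pairs of arrays correlated at r = 0.823 to 0.889 across probes, which are not independent replicates. Exact zeros filled 21.4% to 29.1% of an array's probe values. Such a 0 may mark a spot that gave no usable signal. Values shared by over 100 probes, exact zeros among them, filled 45.3% to 54.1% of an array's probe values. Whether the other shared values are measured ratios was not tested.

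Replication genes had lower signals in Tsk1/+ skin than in the reference RNA. Of the 54 genes, 40 (74.1%) were at least 2-fold lower at an adjusted p below 0.05 in limma, and 0 were higher. Over all 19532 genes the same rule called 7.52% lower and 11.0% higher. All 54 genes lay below 0 on all 4 arrays, against 23.8% of all genes. The median of the 54 genes was -1.58, a 2.98-fold lower signal in skin, while the median over all genes was 0.02. Averaged over probes, Cdt1 was lowest at -3.15 and Rpa2 nearest to 0 at -0.39. Of the 14 genes that did not pass, 12 missed only the minimum size, since 52 of the 54 had an adjusted p below 0.05, a bar that 19.8% of all genes passed with a ratio below 0. The other two, Orc2 and Orc4, also missed on p, at 0.0548 and 0.0806 in limma. The SD over the 4 arrays had a median of 0.197 over the 54 genes and of 0.203 over all genes. All arrays had the same dye orientation, so an effect of the dyes and one of the samples cannot be told apart. Because these are whole-tissue samples, fewer dividing cells and less of each RNA per cell cannot be told apart.

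**Figure D1:**
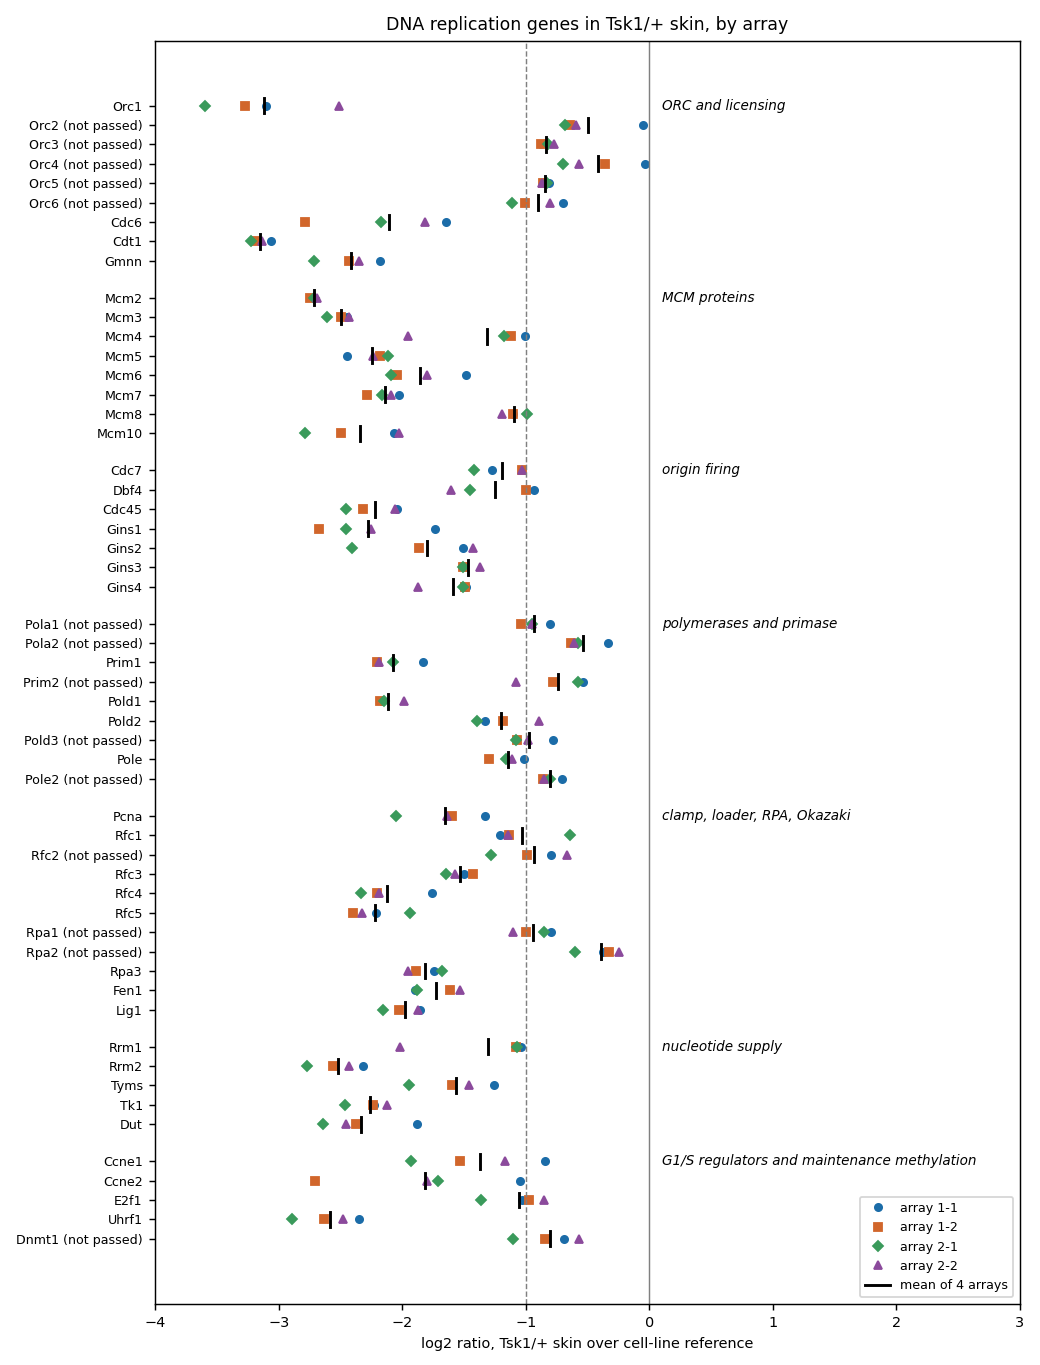
Log2 ratio of Tsk1/+ skin over the cell-line reference (x axis) for the 54 genes (rows, grouped by role); each symbol is 1 array, the black bar is the mean of the 4 arrays, and the dashed line marks a 2-fold lower signal. All symbols lie left of 0, with means between -3.15 for Cdt1 and -0.39 for Rpa2, and 14 genes are marked as not passed.

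Origin recognition and licensing genes split, on probe averages, into very low and mildly low ratios. Of 9 genes, 4 were lower, with a group median of -0.91. Orc1, the largest subunit of the origin recognition complex and the one whose protein is degraded and remade each cycle in human cells, had ratios of -3.10, -3.27, -3.60 and -2.51. It was 8.70-fold lower in skin at -3.12 ± 0.46 (SD, n = 4; limma adjusted p = 0.00144). Cdt1, which brings the helicase to the origin, lay at -3.06, -3.20, -3.22 and -3.14. Its 4 arrays were close together, with a mean of -3.15 ± 0.07, an 8.91-fold lower signal in skin (limma adjusted p = 0.00021). Geminin (Gmnn), the inhibitor of Cdt1, was lower as well, with -2.18, -2.43, -2.71 and -2.35 and a mean of -2.42 ± 0.22. Cdc6, the ATPase that completes the loading complex, was lower at -2.11 ± 0.51, with ratios of -1.65, -2.79, -2.17 and -1.82.

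The other 5 subunits of the origin recognition complex did not pass the test on probe averages. With 1 probe per gene, Orc3, Orc4 and Orc5 passed as lower, while Orc2 and Orc6 did not. That rule kept the probe with fewest zeros and, among equals, the mean of largest size. It thus picked the probe by the value tested, which favours passing. Orc2 had -0.05, -0.64, -0.68 and -0.59, a mean of -0.49 ± 0.29 with a 95% confidence interval of -0.88 to -0.11. Orc4 had -0.03, -0.36, -0.70 and -0.57, a mean of -0.42 ± 0.29 with an interval of -0.80 to -0.04. In both genes array 1-1 sat closest to 0. Orc3 had -0.88, -0.87, -0.82 and -0.77, Orc5 had -0.81, -0.86, -0.82 and -0.87 and Orc6 had -0.70, -1.01, -1.11 and -0.80. These 3 lay below 0 on every array with limma adjusted p of 0.000435, 0.000306 and 0.00347, and missed only the size. The Orc5 average joins a probe at -1.68 with one at 0 on all arrays, which moves the mean of Orc2 to Orc6 toward 0. Array by array and on probe averages, Orc1 minus the mean of Orc2 to Orc6 was -2.60, -2.52, -2.77 and -1.79. That gap averaged -2.42 ± 0.43 on the log2 scale and had the same sign on all 4 arrays; 4 arrays cannot give an exact p under 0.125, so it is given as a description.

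All 8 MCM genes were lower in skin, with a median of -2.19. Mcm2, a subunit of the helicase ring, had -2.72, -2.75, -2.71 and -2.69. They had the smallest SD of the 54 genes, and the mean of -2.72 ± 0.02 was a 6.58-fold lower signal (limma adjusted p = 0.000118). Mcm3 had -2.44, -2.49, -2.61 and -2.43, with a mean of -2.49 ± 0.08. The ring subunits Mcm5, Mcm6 and Mcm7 averaged -2.25 ± 0.14, -1.86 ± 0.28 and -2.14 ± 0.11. Mcm10, which helps the assembled helicase start, averaged -2.34 ± 0.36. Mcm8, which with Mcm9 forms a separate helicase used in homologous recombination, had -1.11, -1.11, -0.99 and -1.19, with a mean of -1.10 ± 0.08. That mean joins a probe at -2.21 with one at exact 0 on 3 arrays, and with exact zeros set to missing it was -1.95.

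Mcm4, the remaining ring subunit, had ratios of -1.004, -1.12, -1.18 and -1.95, a mean of -1.31 ± 0.43 (limma adjusted p = 0.0109), with array 2-2 apart from the other 3. Its 2 probes differed. The first gave -2.01, -2.24, -2.35 and -2.28 and passed on its own, and the other gave 0.00, 0.00, 0.00 and -1.62, that is, exact zeros on 3 arrays. The value of -1.615 was held by 148 probes of array 2-2. The call for Mcm4 was lost without array 1-2 (adjusted p = 0.053) or without array 2-1 (adjusted p = 0.054), both with the mean still below -1.

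The 7 origin firing genes were all lower, with a median of -1.59. Gins1, a subunit of the GINS complex, had -1.74, -2.67, -2.46 and -2.25, with a mean of -2.28 ± 0.40 (limma adjusted p = 0.00217). Cdc45, the helicase's partner, had -2.05, -2.32, -2.46 and -2.06 and a mean of -2.22 ± 0.20. Gins2, Gins3 and Gins4 averaged -1.80 ± 0.45, -1.47 ± 0.07 and -1.59 ± 0.19, so all 4 GINS subunits and Cdc45 were lower. The kinase Cdc7 had -1.28, -1.03, -1.42 and -1.03 and a mean of -1.19 ± 0.19, with 3 probes at -1.99, -1.27 and -0.31. Its activator Dbf4 had -0.94, -0.99, -1.45 and -1.61 and a mean of -1.25 ± 0.33, with 3 probes at -2.46, -0.98 and -0.30. Both kinase genes passed, and Dbf4 lost its call when the median of its probes was used (limma adjusted p = 0.0902).

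Among the polymerases and primase, 4 of 9 genes were lower, with a median of -0.98. Pold1, the catalytic subunit of polymerase delta, had -2.17, -2.18, -2.15 and -1.98. It averaged -2.12 ± 0.09, a 4.34-fold lower signal in skin (limma adjusted p = 0.000293). Prim1, the catalytic primase subunit, was also lower, with -1.83, -2.21, -2.07 and -2.19 and a mean of -2.08 ± 0.17. Pold2, an accessory subunit of polymerase delta, and Pole, the catalytic subunit of polymerase epsilon, passed close to the minimum size at -1.20 ± 0.22 and -1.15 ± 0.12.

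The 5 genes that did not pass had an adjusted p below 0.05 in limma and means between -0.98 and -0.54. Pola1, the catalytic subunit of polymerase alpha, had -0.80, -1.04, -0.95 and -0.95. Pola2, its regulatory subunit, had -0.33, -0.64, -0.58 and -0.61. Prim2, the large primase subunit, had -0.53, -0.78, -0.57 and -1.08. All 3 partners of Prim1 in the polymerase alpha complex therefore lay nearer to 0 than Prim1 on probe averages. The Pola1 average joins a probe at -1.89 with one at exact 0 on 3 arrays, so its distance from Prim1 depends on the probe. Prim1 minus Prim2 was -1.30, -1.43, -1.50 and -1.11. Pold3 had -0.78, -1.07, -1.08 and -0.98 and Pole2, the second subunit of polymerase epsilon, had -0.71, -0.86, -0.80 and -0.86. Pold1 minus the mean of Pold2 and Pold3 was -1.11, -1.05, -0.91 and -1.05 on probe averages, lower on all 4 arrays (no test). The Pold3 probes lay apart, at -1.94, -0.62 and -0.37, so this gap too depends on the probe. Without array 1-1, Pold3 passed with a mean of -1.04.

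Of 11 genes of the sliding clamp, its loader, single-strand binding and Okazaki fragment joining, 8 were lower, with a median of -1.66. Rfc5, a clamp loader subunit, had -2.22, -2.40, -1.94 and -2.33, with a mean of -2.22 ± 0.20 (limma adjusted p = 0.00063). Rfc4 had -1.76, -2.20, -2.34 and -2.18 and a mean of -2.12 ± 0.25, and Rfc3 averaged -1.54 ± 0.09. These 3 small subunits were thus all lower. Rfc2 had -0.80, -0.99, -1.28 and -0.67 and did not pass, with a mean of -0.93 ± 0.27, although without array 2-2 it did (mean -1.02). Rfc1, the large subunit, had -1.20, -1.13, -0.65 and -1.15, with array 2-1 nearest to 0. Its mean of -1.03 ± 0.26 passed narrowly, and without array 1-1, 1-2 or 2-2 the mean was -0.98, -0.999 or -0.99, short of the minimum size.

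Pcna, the sliding clamp itself, had -1.33, -1.60, -2.05 and -1.64 and was lower, with a mean of -1.66 ± 0.30 (limma adjusted p = 0.00231). Fen1, the flap nuclease, and Lig1, the ligase that joins Okazaki fragments, were lower at -1.73 ± 0.19 and -1.98 ± 0.14. The 3 subunits of replication protein A had unlike ratios, given here with no test between them. Rpa3, the smallest, was lower with -1.74, -1.89, -1.68 and -1.95 and a mean of -1.82 ± 0.13. Rpa1 had -0.80, -0.995, -0.86 and -1.11 and Rpa2 had -0.38, -0.32, -0.60 and -0.25. Neither passed, and Rpa2 had a 95% confidence interval of -0.59 to -0.19. Rpa3 minus the mean of the other two was -1.16, -1.23, -0.95 and -1.28, with the same sign on every array.

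The 5 nucleotide supply genes were all lower, with a median of -2.26. Rrm2, the small subunit of ribonucleotide reductase, had -2.32, -2.56, -2.77 and -2.43. It was 5.73-fold lower in skin, at -2.52 ± 0.19 (limma adjusted p = 0.000485). Dut, which clears dUTP, had -1.88, -2.38, -2.64 and -2.46 and a mean of -2.34 ± 0.32. Tk1, the cytosolic thymidine kinase, averaged -2.26 ± 0.14. Tyms, which makes thymidylate, had -1.26, -1.60, -1.94 and -1.46 and a mean of -1.56 ± 0.29; of its 3 probes, 2 lay at -2.26 and -2.20 and the third, with exact zeros on 3 arrays, at -0.23. Rrm1, the large subunit of the reductase, had -1.04, -1.08, -1.07 and -2.02. Its mean was -1.30 ± 0.48, and as in Mcm4 the probes differed, with -2.08, -2.16, -2.14 and -2.42 on the first and 0.00, 0.00, 0.00 and -1.62 on the other. Without array 1-1, 1-2 or 2-1 the limma adjusted p for Rrm1 was 0.052, 0.0635 or 0.0602, so the call was lost.

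Of the 5 regulators of S phase entry and maintenance methylation, 4 were lower, with a median of -1.37. Uhrf1, which brings the maintenance methyltransferase to newly copied DNA, had -2.35, -2.64, -2.89 and -2.48. It averaged -2.59 ± 0.23, a 6.02-fold lower signal (limma adjusted p = 0.000622). Its partner Dnmt1, the methyltransferase, had -0.69, -0.85, -1.11 and -0.57 and did not pass, at -0.80 ± 0.23. The cyclin genes Ccne1 and Ccne2, whose proteins activate Cdk2 at S phase entry, were lower. Ccne2, whose SD was the largest of the 54 genes, had -1.05, -2.71, -1.71 and -1.80 on probe averages, with array 1-2 lowest and array 1-1 highest. Its mean was -1.82 ± 0.68 (limma adjusted p = 0.0158). The low on array 1-2 came from a probe that read -0.992, -3.537, -1.535 and -1.615 and did not pass alone. The other probe read -1.10, -1.88, -1.89 and -1.98 and passed. The -1.615 on array 2-2 was held by 148 probes. Ccne1 had -0.85, -1.54, -1.93 and -1.17 and a mean of -1.37 ± 0.47 (adjusted p = 0.012).

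Ccne1 lost its call without array 1-2 or 2-2 (limma adjusted p = 0.0684 and 0.0514), and Ccne2 without array 2-1 or 2-2 (limma adjusted p = 0.0737 and 0.0727). E2f1, the transcription factor that drives many S phase genes, had -1.03, -0.97, -1.36 and -0.85. Its mean of -1.05 ± 0.22 passed the size narrowly and was -0.95 without array 2-1.

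Probes of a gene often gave different ratios, and averaging moved such genes toward 0. Of the 87 probes, 80 had a mean below 0, 2 were listed at 0 on all arrays and 5 lay above 0. Tested singly, 56 probes were lower and 0 higher, against 8.22% of all 32664 probes with 1 symbol that were lower. At least 1 probe was lower in 46 of the 54 genes. In 12 genes the probe means were more than 1 apart on the log2 scale, and 12 probes of 11 genes had an exact 0 on some array.

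Pole shows the pattern at its plainest: one probe gave -2.04, -2.59, -2.32 and -2.22, and the other was listed at 0 on all 4 arrays. Orc5 had the same form, with -1.63, -1.72, -1.65 and -1.73 on one probe and 0 on all arrays on the other. Mcm8 had -2.21, -2.21, -2.04 and -2.38 on one probe and 0.00, 0.00, 0.07 and 0.00 on the other. Pola1 and Pole2 had probes at -1.89 and 0.02, and at -1.65 and 0.04. Orc5, Pola1 and Pole2 therefore did not pass on their averages while 1 probe of each passed alone. With exact zeros set to missing, these 3 genes passed and the count was 43 of 54. Pold3 had probes at -1.94, -0.62 and -0.37, and Orc4 had 4 probes at -1.18, -0.90, -0.05 and 0.46, without any exact 0. The Orc4 probe at -0.05 read 0.155, 0.401, -0.824 and 0.057. Probes of Pola2, Pole2, Hus1 and Lin54, among others, read the same 0.155 on array 1-1. Probes of Lin54, Cdk1 and Krt31, among others, read the same 0.401 on array 1-2. These values were thus shared among probes, and whether they are measured ratios was not tested. Which probe follows the transcript better was not tested.

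The 8 genes without any probe that passed were Dnmt1, Orc2, Orc6, Pola2, Prim2, Rfc2, Rpa1 and Rpa2. Pola2 had probes at -0.99, -0.63 and 0.01, and Rpa2 at -0.58 and -0.20.

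**Figure D2:**
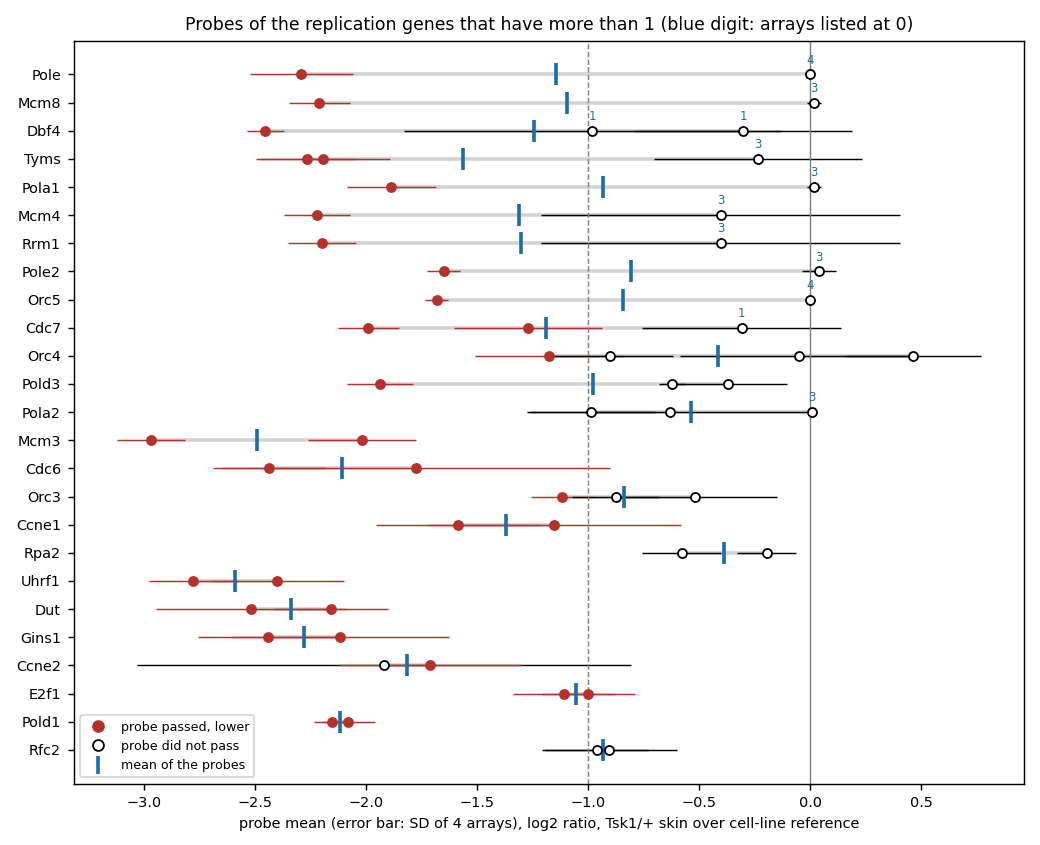
Mean log2 ratio of Tsk1/+ skin over reference (x axis) for each probe of the 25 genes that have several; error bars are the SD over 4 arrays, filled points passed the test alone, open points did not, blue bars mark the gene's mean and digits count the arrays at exact 0. Pole and Orc5 each have 1 probe at 0 and another at -2.29 and -1.68, and Orc4 spreads from -1.18 to 0.46.

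The 4 arrays gave similar levels for these genes. Medians over the 54 genes were -1.41, -1.57, -1.70 and -1.62. Array 1-1 held the highest ratio of 32 of the 54 genes and array 2-1 the lowest of 28. The same arrays led among the 1468 genes lower in skin, where array 1-1 held the highest ratio in 43.7% and array 2-1 the lowest in 34.1%. Exact zeros made up 20.2%, 18.1%, 15.0% and 19.9% of gene averages on the 4 arrays. Arrays 1-2 and 2-2, at 18.1% and 19.9%, held the highest ratio of 1 and 16 of the 54 genes. The part of exact zeros in these array differences was not tested. Nor was that of the hair keratins Krt71, Krt27 and Krt33a, which were high on array 1-1.

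The title numbers split the arrays in pairs, with no stated meaning. For the first number, arrays 1-1 and 1-2 against 2-1 and 2-2, limma called 0 of 19532 genes (0.0%), with 782 at an unadjusted p below 0.05. Dbf4 was the only replication gene among these, with a difference of 0.56 and an adjusted p of 0.957 in limma. For the second number, 1 gene was called (0.00512%), Scin, which is no replication gene, and 968 genes had an unadjusted p below 0.05. Of the 54 genes, Cdc7, Rpa1, Rpa3 and Fen1 were among them, with no adjusted p under 0.868. The replication genes therefore gave no calls by either number.

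Genes that work beside the replisome had low ratios and ratios near 0. Of 26 other replisome, fork and firing factors, 13 were lower and 0 higher, with a median of -1.05. Dtl, which targets Cdt1 for destruction, and Timeless, a fork protection factor, were lowest at -2.54 ± 0.40 and -2.41 ± 0.05, and Rnaseh1 stood highest at 0.49 ± 0.30 without passing. Of 14 chromatin assembly genes 10 were lower, with a median of -1.74. Hells, a chromatin remodeller, stood at -3.44 ± 0.43 and Chaf1b, a subunit of the histone chaperone CAF-1, at -2.64 ± 0.28. Of 8 genes of the alternative clamp loaders and the checkpoint clamp, 3 were lower, with Dscc1 at -2.55 ± 0.14. Of 4 mismatch repair genes 2 were lower, among them the nuclease gene Exo1 at -3.56, -3.77, -3.86 and -3.84.

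Of 13 repair and translesion polymerase genes 3 were lower and 1, Polb, the base excision repair polymerase, was higher. Polb had 1.28, 1.16, 1.84 and 0.89, with a mean of 1.29 ± 0.40 (limma adjusted p = 0.00925), above 0 on all 4 arrays. Of 12 genes of mitochondrial DNA replication 0 were lower and 0 higher in limma, and their median was 0.03. At an unadjusted p below 0.05 with no minimum size, 4 of the 12 lay below 0 and 4 above. The mitochondrial thymidine kinase gene Tk2 stood at 0.81 ± 0.27 and Mgme1, a mitochondrial exonuclease, at -0.85 ± 0.14. Of 19 other nucleotide synthesis enzymes 9 were lower, with a median of -0.94. Shmt2, which supplies folate carbon for thymidylate synthesis, and Dck, a salvage kinase, were lowest at -2.28 ± 0.17 and -1.99 ± 0.17, and Samhd1, which degrades deoxynucleotides, stood at 0.23 ± 0.19.

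Cell cycle control genes lay on both sides. Of 18 E2F, pocket protein and DREAM genes 5 were lower, with E2f8 at -2.70 ± 0.20 and Mybl2 at -2.59 ± 0.31, and E2f6 stood at 0.87 ± 0.40 without passing. Of 13 G1 and S cyclin and kinase genes 7 were lower, with Cks2 at -3.04 ± 0.17 and Ccna2 at -2.69 ± 0.22. Of 7 inhibitors of cyclin-dependent kinases 1 was lower and 1 higher. Cdkn1c (p57) had 2.48, 3.03, 2.83 and 3.16 and was 7.35-fold higher in skin, while Cdkn2a had -2.78, -3.13, -3.26 and -2.65 and was 7.75-fold lower. Of 20 genes in the mitosis list all 20 were lower, with a median of -2.12 and Tpx2, a spindle assembly factor, at -3.30 ± 0.02. Top2a is counted both there and among the other replisome, fork and firing factors. Of 9 other DNA methylation genes 0 were lower and 0 higher in limma, with 2 below 0 and 3 above at an unadjusted p below 0.05.

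**Figure D3:**
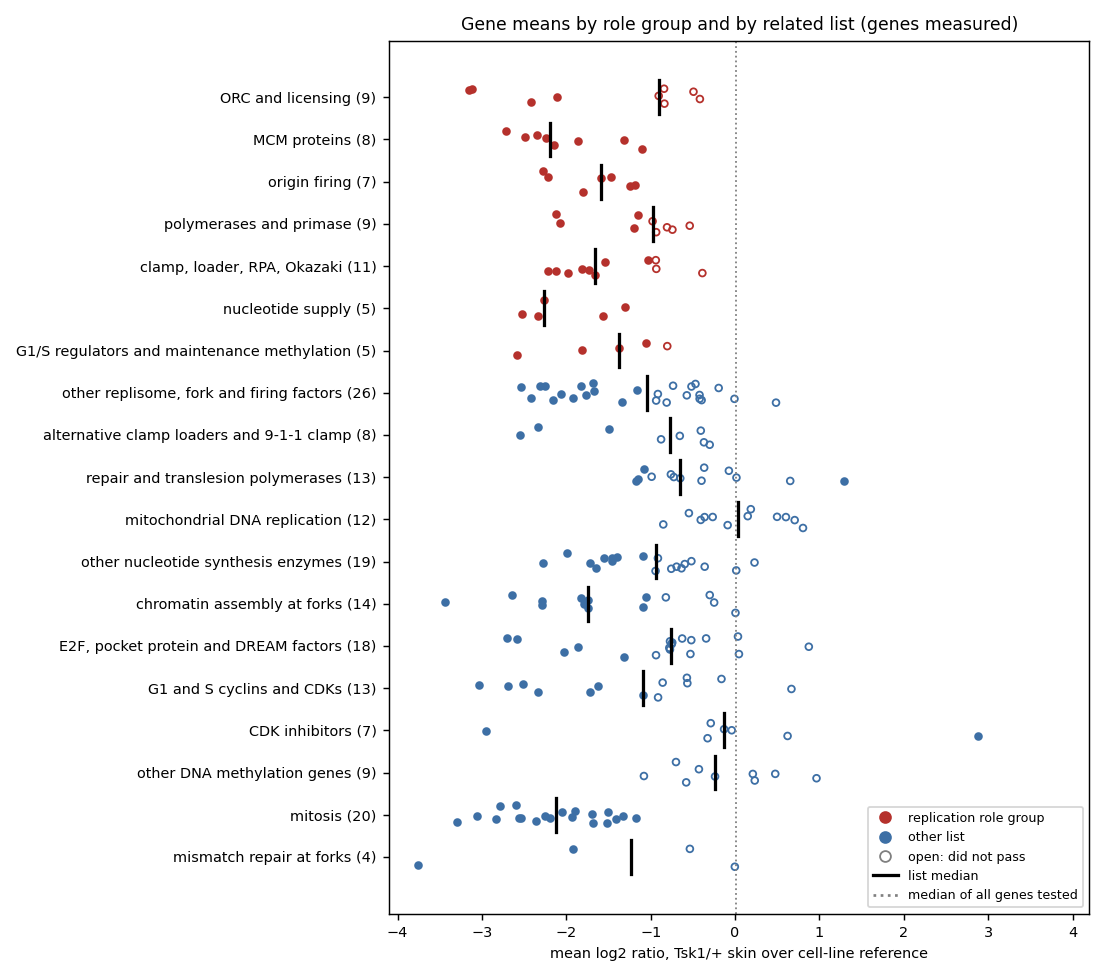
Log2 ratio of Tsk1/+ skin over reference (x axis) for each gene of the 7 role groups and of the related lists (rows), each point a gene averaged over 4 arrays and each bar the list's median. The MCM, nucleotide supply and mitosis rows lie wholly left of -1, and the mitochondrial row is spread around 0 with a median of 0.03.

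Several replication genes have a relative with another role or compartment. Rrm2 minus Rrm2b, the p53-inducible small subunit of the reductase, was -2.57, -2.67, -2.16 and -3.28 on the 4 arrays, with Rrm2b at 0.15 ± 0.60. Tk1 minus Tk2 was -2.64, -3.13, -3.46 and -3.05, with the 2 genes on opposite sides of 0. Uhrf1 minus Uhrf2 was -2.48, -2.03, -2.37 and -1.77, and Dnmt1 minus the de novo methyltransferase gene Dnmt3a was -0.92, -0.85, -1.31 and -0.98. On probe averages the replication gene had the lower ratio on every array in all 4 comparisons. The 3 Dnmt3a probes lay apart, at -0.73, 0.51 and 0.85. The lowest of them read -0.992, -1.162, -0.356 and -0.39, below Dnmt1 on arrays 1-1 and 1-2. Probes of Orc3 and Ccne2 read the same -0.992 on array 1-1, and probes of Cdc7 and Cdk2 the same -1.162 on array 1-2. Whether these shared values are measured ratios was not tested. The Rrm2b probes averaged -0.14 and 0.44, the latter with 2.14 on array 2-2. The Uhrf2 probes averaged -1.15, -0.29 and 0.15, the middle of them with 1.305 on array 1-1. The sizes of the gaps to Rrm2 and Uhrf1 thus depend on the probe. Rrm2b, Tk2, Uhrf2 and Dnmt3a did not pass the test. These differences are descriptions with no test.

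Mcm8 minus Mcm9 was -0.40, -0.25, 0.13 and -0.13, with Mcm9 at -0.94 ± 0.19, so the sign varied on probe averages, while the Mcm8 probe without zeros stood at -2.21. E2f1 minus E2f4, a factor that represses in resting cells, was -0.68, -0.03, -0.49 and -0.04. Ccne1 minus Ccne2 was 0.20, 1.17, -0.22 and 0.63, also with both signs. The Ccne2 probes read -3.54 and -1.88 on array 1-2, so the size of the 1.17 depends on the probe. Rfc1 minus Chtf18, the large subunit of the loader used in sister chromatid cohesion, was 0.81, 1.45, 1.88 and 1.07, so Chtf18 was the lower of the pair on each array, at -2.34 ± 0.27.

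**Figure D4:**
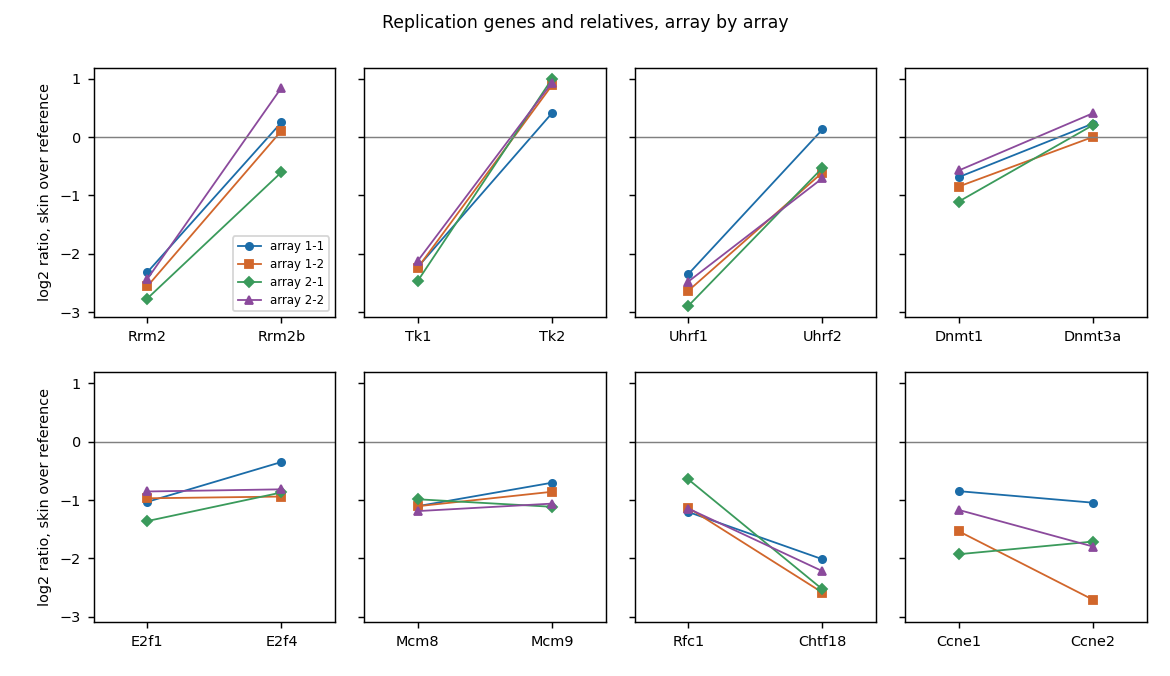
Log2 ratios of Tsk1/+ skin over reference on each of the 4 arrays (1 line per array) for a replication gene (left of each panel) and its relative (right). Lines climb on every array for Rrm2 with Rrm2b, Tk1 with Tk2, Uhrf1 with Uhrf2 and Dnmt1 with Dnmt3a, and run both ways for Ccne1 with Ccne2.

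The promoters of these genes were read for E2F letters because E2F factors drive many of them. RefSeq windows of GRCm38.p6, 250 bases before to 50 after the start, were given for 45 of the 54 genes. The letters searched on both strands were TTTCCCGC, TTTCGCGC, TTTGCCGC and TTTGGCGC, where matches may overlap. They occurred in 18 of the 45 genes, against 704 of 27025 genes with a window (2.60%). Among genes that were lower in skin 13 of 33 (39.4%) held a match, and among those that did not pass 5 of 12 (41.7%). The 5 that did not pass were Dnmt1, Orc3, Pola1, Pold3 and Pole2. These shares depend on how probes were joined: with 1 probe per gene, 17 of 39 lower genes (43.6%) and 1 of 6 that did not pass, Dnmt1, held a match. The rule of 1 probe per gene favours probes with a mean of large size, so it favours passing. On probe averages the median ratio was -1.92 for genes with E2F letters and -1.37 for those without, a description with no test. The 25 matches included 16 within 60 bases of the start. A match is a description of letters, not a site at which a factor was measured.

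Windows of 150 bases, 120 before to 30 after the start, are shown first for 6 genes that were lower in skin and hold E2F letters, marked in capitals.
Orc1, chr4:108579334-108579483 on the plus strand: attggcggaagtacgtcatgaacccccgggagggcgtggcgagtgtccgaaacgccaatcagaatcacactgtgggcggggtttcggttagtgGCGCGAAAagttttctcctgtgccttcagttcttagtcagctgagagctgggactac
Mcm3, chr1:20820283-20820432 on the minus strand: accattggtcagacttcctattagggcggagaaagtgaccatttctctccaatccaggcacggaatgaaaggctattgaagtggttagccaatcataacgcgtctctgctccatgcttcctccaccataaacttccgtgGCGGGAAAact
Mcm6, chr1:128359676-128359825 on the minus strand: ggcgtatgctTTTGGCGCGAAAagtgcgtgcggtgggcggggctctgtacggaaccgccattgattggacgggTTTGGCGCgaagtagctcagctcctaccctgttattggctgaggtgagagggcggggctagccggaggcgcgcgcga
Mcm7, chr5:138171854-138172003 on the minus strand: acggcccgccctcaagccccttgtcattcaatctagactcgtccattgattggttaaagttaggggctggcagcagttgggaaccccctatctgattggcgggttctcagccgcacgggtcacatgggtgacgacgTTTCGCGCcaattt
Rfc3, chr5:151651179-151651328 on the minus strand: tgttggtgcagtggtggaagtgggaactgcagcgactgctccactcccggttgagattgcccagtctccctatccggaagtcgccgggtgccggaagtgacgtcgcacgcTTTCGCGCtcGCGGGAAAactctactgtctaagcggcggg
Gins3, chr8:95633439-95633588 on the plus strand: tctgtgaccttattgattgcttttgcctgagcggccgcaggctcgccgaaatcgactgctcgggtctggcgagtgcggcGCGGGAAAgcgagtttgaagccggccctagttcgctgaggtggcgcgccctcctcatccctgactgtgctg
Mcm6 shows 3 matches, of which 2 overlap, and Rfc3 shows 2 on opposite strands next to the start. The next 3 carry E2F letters in genes that did not pass on their probe averages of -0.84, -0.98 and -0.81. Each of them has a probe that passed alone, at -1.12, -1.94 and -1.65.
Orc3, chr4:34614913-34615062 on the minus strand: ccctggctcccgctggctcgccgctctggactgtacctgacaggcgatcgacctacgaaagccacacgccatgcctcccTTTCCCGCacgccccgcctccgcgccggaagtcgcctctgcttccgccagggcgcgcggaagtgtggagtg
Pold3, chr7:100121473-100121622 on the minus strand: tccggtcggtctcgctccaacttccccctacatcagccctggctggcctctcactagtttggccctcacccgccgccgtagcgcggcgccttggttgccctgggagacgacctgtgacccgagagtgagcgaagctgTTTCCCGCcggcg
Pole2, chr12:69228161-69228310 on the minus strand: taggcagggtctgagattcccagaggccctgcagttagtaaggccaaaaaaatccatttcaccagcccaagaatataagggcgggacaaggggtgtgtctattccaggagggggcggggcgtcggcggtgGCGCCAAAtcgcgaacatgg
The last pair has none of these letters, although Mcm2 was 6.58-fold lower in skin and Rpa2, on its probe average, had the ratio nearest to 0 of all 54 genes.
Mcm2, chr6:88898751-88898900 on the minus strand: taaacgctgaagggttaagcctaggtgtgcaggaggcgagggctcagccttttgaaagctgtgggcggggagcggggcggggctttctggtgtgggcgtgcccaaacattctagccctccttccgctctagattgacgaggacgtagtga
Rpa2, chr4:132768240-132768389 on the plus strand: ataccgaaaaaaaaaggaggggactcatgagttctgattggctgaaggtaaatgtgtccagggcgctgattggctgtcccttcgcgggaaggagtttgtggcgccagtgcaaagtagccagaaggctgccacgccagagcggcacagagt

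Other letters gave smaller contrasts with all genes that had a window. CCAAT occurred in 26 of the 45 genes (57.8%), against 41.1% of all genes, and in 57.6% of those lower and 58.3% of those that did not pass. TTTGAA, the core of the CHR element of G2 and M phase genes, occurred in 8 of the 45 (17.8%), against 20.2% of all genes. No match says only that these letters are not in the window.

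**Figure D5:**
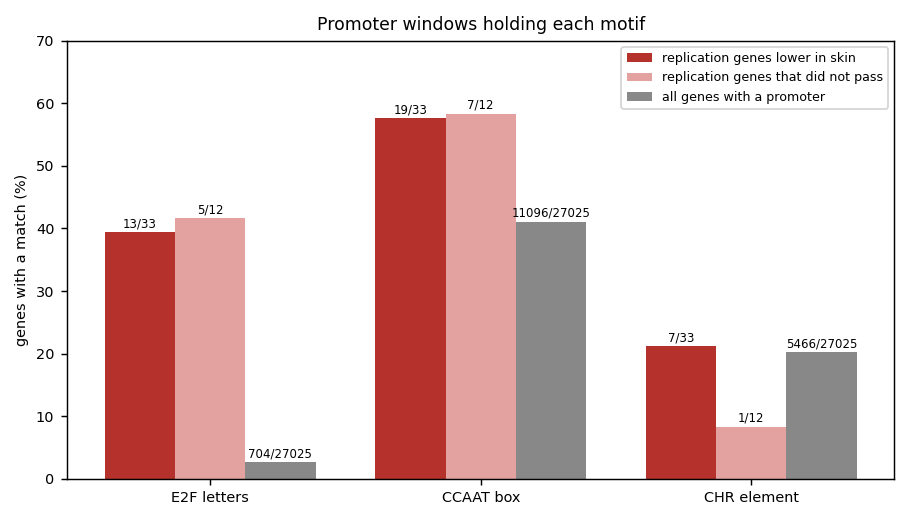
Percent of genes with E2F letters, CCAAT or TTTGAA in any of their promoter windows (y axis, from 0). Bars show the replication genes lower in Tsk1/+ skin (n = 33), those that did not pass (n = 12) and all genes with a window (n = 27025). Calls are those on probe averages; E2F letters reach 39.4% and 41.7% in the replication genes, against 2.60% of all genes.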

How the data were processed

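Each deposited value is a log ratio between both channels of an array for 1 probe; how the authors corrected background and normalized is not given in the sources used here. Per the labels, labelling started from 200 ng of total RNA (Agilent Quick-Amp). The deposited values were read as log2: among the 40 commonest values of each array, 21 of 3120 pairs lay 2 apart within 0.001, the distance of a 4-fold ratio in log2, while 2 pairs fitted the natural log and 4 fitted log10. How the arrays were centred is unknown; each deposited column had a median of 0.

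Of 41174 probes, 32664 had 1 symbol in the platform annotation, 45 had several and 8465 were not named; 32524 matched RefSeq by Entrez ID. Probes with several symbols or none were left out. Probes of a gene were averaged, genes with values on at least 3 arrays were kept, and the mean was tested against 0 with limma 3.58.1 in R 4.3.3 (lmFit, eBayes, two-sided, Benjamini-Hochberg over all genes). Passing needed an adjusted p below 0.05 and a mean of at least 1 in size. Having 4 arrays limits the precision. The script was tested on simulated data. Alternatives changed the zeros, probe rule, centring, normalization, test, blocks and arrays. The alternative with 1 probe per gene kept the probe with fewest zeros or missing values and, among equals, the mean of largest size. It therefore selected probes by the value tested. All 54 genes could be named; of each other list the rule names the 2 largest ratios and the most opposite, and marker genes beyond it were named after their values were seen. The genes and lists were chosen with earlier results of these data known. Figures were drawn with matplotlib 3.10.9.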

Additional observations from a re-analysis of the deposited data

Results flagged for a closer look

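In 6 of the 54 genes (11.1%) 1 array stood apart from the other 3 by Dixon's criterion for 4 values, which chance meets in about 1 of 20 groups. Orc2 was nearest to 0 on array 1-1, at -0.054. Array 2-2 stood apart in Gins3 at -1.37, in Gins4 at -1.87, in Pold1 at -1.98 and in Rrm1 at -2.02. Rfc1 was nearest to 0 on array 2-1, at -0.65. For Rrm1 the value came from a probe with exact zeros on the other 3 arrays. Array 2-2 was the higher of the values in Gins3 and Pold1 and the lower in Gins4 and Rrm1.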

How the results depend on the processing

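The count of 40 lower replication genes was 36 to 39 with 1 array left out, 43 with exact zeros missing, 44 with values shared by over 100 probes missing, 39 with the median of probes, 46 with 1 probe per gene, 44 with arrays centred on their non-zero median, 37 with the arrays of each first title number averaged, and 52 by adjusted p alone. It was 27 by limma's treat against a 2-fold change, and 46 genes had a probe that passed when probes were tested separately, an alternative chosen after seeing the data. The title numbers as random blocks, quantile normalization, a trended robust fit and the removal of genes whose average was exactly 0 on an array each left it at 40. None of these settings turned a direction. The 27 genes lower under every setting were Orc1, Cdc6, Cdt1, Gmnn, Mcm2, Mcm3, Mcm5, Mcm6, Mcm7, Mcm10, Cdc45, Gins1, Gins3, Gins4, Prim1, Pold1, Pcna, Rfc3, Rfc4, Rfc5, Rpa3, Fen1, Lig1, Rrm2, Tk1, Dut and Uhrf1. The median of the 54 genes was -1.82 with exact zeros missing, -1.88 with shared values missing and -1.96 with 1 probe per gene. The rule of 1 probe per gene favours probes with a mean of large size, which affects both its count and its median. In the main setting 1468 of all 19532 genes were lower. It was 1640 of 15102 with exact zeros missing and 1754 of 12176 with shared values missing. Of all 19532 genes, 2198 were lower with 1 probe per gene, 1681 with the non-zero centring and 1470 with the median of probes. Leaving out 1 array gave 1328 to 1469, and joining arrays that share a first title number gave 1343. Over all genes, adjusted p alone called 3870 lower and 4534 higher, treat 694 and 1338, and single probes 2685 and 3418. Settings that raised the replication count thus also raised the share of all genes called lower. By the second title number 0 genes were called with exact zeros missing and 0 with quantile normalization. Signal over background was not used here, so a 0 cannot be told from an unmeasured spot.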
